A study of Homo sapiens with 3 samples.

Results

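A set of 10 genes of cytokinesis and the spindle midzone (ANLN, ECT2, RACGAP1, PRC1, CEP55, KIF23, KIF20A, CIT, AURKB and INCENP) was followed through irradiated, never irradiated and regrown cells of HCT116, a human colorectal cancer line that carries p53 (labelled p53plus). They are 10 of the 33538 genes in each deposited matrix and were chosen by name for their role in cell division, since a failed cytokinesis is one route to a giant cell. The data are 2 droplet libraries of single cells. Mix1 held irradiated cells only: giant cells induced by 8 Gy, isolated on day 5 or day 8 and kept in culture to day 10 or day 11, in 4 groups that carry no tag and so form 1 population here. In Mix2, 3 suspensions were marked with antibody hashtags before pooling: irradiated cells prepared as for Mix1 (IR, 8 Gy, tag8, an estimated 10000 cells loaded), cells that were not irradiated (NC, 0 Gy, tag6, 1000 cells) and cells that had repopulated the culture after irradiation (R, 8 Gy, tag7, 1000 cells). Per the paper, R was taken later after irradiation than IR, so comparisons of IR with R also differ in time.

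A cell of Mix2 entered a population when its own tag made up at least 80% of its tag counts. NC needed at least 374 counts of tag6 and R at least 104 of tag7. The irradiated cells were divided by tag8 into strong IR (at least 3160 counts) and weak IR (500 to 3159). This gave 810 NC, 633 R, 6322 weak IR and 2216 strong IR cells, beside 15630 cells of Mix1, each of them with 200 or more genes detected and less than 10% of UMIs (unique molecular identifiers, each standing for 1 captured transcript) from mitochondrial genes. Whether a cell counted as weak IR was irradiated rests on its tag8 label alone, and droplets without cells held a median of 119 tag8 counts. There is 1 sample of each population and cells are not replicates, so the differences have no replicate error and no test was made. Bracketed ranges are 95% intervals from exact counting statistics, which leave out every other source of error.

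Cytokinesis is the last step of cell division, in which the daughter cells are pulled apart and cut from each other. When the chromosomes separate, antiparallel microtubules are bundled between them into the midzone, and the chromosomal passenger complex (the kinase Aurora B, encoded by AURKB, and its scaffold INCENP) moves there with the motor KIF20A. The bundler PRC1 and the centralspindlin complex of KIF23 and RACGAP1 build the midzone. Centralspindlin then brings ECT2, which switches on the GTPase RhoA at the cortex. RhoA drives assembly of the contractile ring, to which the scaffold anillin (ANLN) and citron kinase (CIT) bind. CEP55 gathers at the thin bridge that remains and recruits the ESCRT machinery that cuts it. Most of these genes are transcribed late in the cell cycle, and a cell that enters mitosis but does not complete this step becomes binucleate or polyploid.

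Sequence before the transcription start is shown for 6 of the genes, taken from each step of the process, because all 10 were lower in strong IR than in NC and late cell cycle promoters often carry the hexamer TTTGAA (the CHR element) and CCAAT boxes, the binding site of NF-Y. RefSeq promoters (GRCh38.p14, 250 bases before to 50 after each start) matched 9 of the 10 genes, and RACGAP1 was not matched. Both motifs were searched on both strands, and no match of one overlapped a match of the other in these genes. TTTGAA was present for 7 of the 9 (ANLN, CEP55, CIT, ECT2, INCENP, KIF23 and PRC1), against 18.2% of 27305 genes in the same table. CCAAT was present for 8 of the 9, all but ANLN, against 39.7% of those genes. These shares are a description and were not tested. The lines below give 120 bases that end at the base before the start, 5′ to 3′ on the strand of the gene, with both motifs, in either orientation, in capitals. They lie at chr7:36389742-36389861 (plus strand, ANLN), chr15:90994536-90994655 (minus, PRC1), chr15:69414229-69414348 (plus, KIF23), chr11:62123891-62124010 (plus, INCENP), chr10:93496492-93496611 (plus, CEP55) and chr5:138178992-138179111 (plus, KIF20A).
ANLN: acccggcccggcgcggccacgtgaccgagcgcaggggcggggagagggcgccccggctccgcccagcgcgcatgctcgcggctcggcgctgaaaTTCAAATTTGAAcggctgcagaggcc
PRC1: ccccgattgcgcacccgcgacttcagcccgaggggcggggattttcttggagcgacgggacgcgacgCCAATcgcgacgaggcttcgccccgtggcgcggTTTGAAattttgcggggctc
KIF23: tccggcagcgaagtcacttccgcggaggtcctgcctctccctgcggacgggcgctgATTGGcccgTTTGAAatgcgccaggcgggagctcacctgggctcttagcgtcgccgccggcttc
INCENP: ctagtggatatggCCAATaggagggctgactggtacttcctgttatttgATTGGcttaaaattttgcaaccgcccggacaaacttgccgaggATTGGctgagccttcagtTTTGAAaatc
CEP55: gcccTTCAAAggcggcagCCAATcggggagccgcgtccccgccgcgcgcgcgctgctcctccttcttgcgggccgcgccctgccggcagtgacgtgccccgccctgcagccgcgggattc
KIF20A: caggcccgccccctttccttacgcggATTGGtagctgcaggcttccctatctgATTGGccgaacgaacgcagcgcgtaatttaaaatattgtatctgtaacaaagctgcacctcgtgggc

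In ANLN and PRC1 a TTTGAA began 20 bases before the start, in INCENP 10 bases before it and in KIF23 55 bases before it. CEP55 carried it in the reverse orientation, 116 bases before the start and again across the start itself. KIF20A held no TTTGAA in its entry but a pair of CCAAT boxes, and AURKB likewise held CCAAT alone.

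Every gene of the set had UMIs in every population, from 50 for CIT in R to 9986 for CEP55 in Mix1. Summed gene UMIs ranged from 4731705 in R to 150680612 in Mix1, with 6104377 in NC and 27127545 in strong IR. Median UMIs per cell lay between 6933 and 8995.5 outside strong IR and at 11861.5 in strong IR, so shares of positive cells are also given after each cell was thinned to 5000 UMIs. The 5 epithelial markers fixed for this line (EPCAM, KRT8, KRT18, KRT19 and CDH1) were present in every population, at 13.5 to 2362 CPM (UMIs of a gene scaled to a total of 1e+06 UMIs). Of 8 markers of immune, stromal, endothelial and red blood cells COL1A1 reached the highest level, 2.99 CPM, and PTPRC, CD3E and COL1A2 had no UMI in the populations of Mix2. Between the libraries, 59 cell barcodes were shared.

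In strong IR cells all 10 genes were lower than in NC cells. Their summed level was 231 CPM in strong IR against 547 CPM in NC, a ratio of 0.423 (0.405 to 0.441), with 6268 and 3338 UMIs behind the values. Each of the 10 was past 1.5-fold, the size used here to call a gene lower or higher among those with at least 10 CPM in either population. Of all 7722 genes measured in this comparison 15.4% were called lower and 9.92% higher. The ratios of the 10 ran from 0.351 to 0.498 with a median log2 ratio of -1.30, where the median over all measured genes was -0.11. With a stricter cell filter (at least 1000 genes and under 5% mitochondrial UMIs), which left 172 NC and 897 strong IR cells, the summed log2 ratio was -1.92 in place of -1.24. Summed counts of a population cannot by themselves tell fewer cells with these transcripts from fewer transcripts per cell, and shares of positive cells are given below. The plots of levels and of ratios by gene show the strong IR points apart from NC, R and weak IR for every gene.

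**Figure D1:**
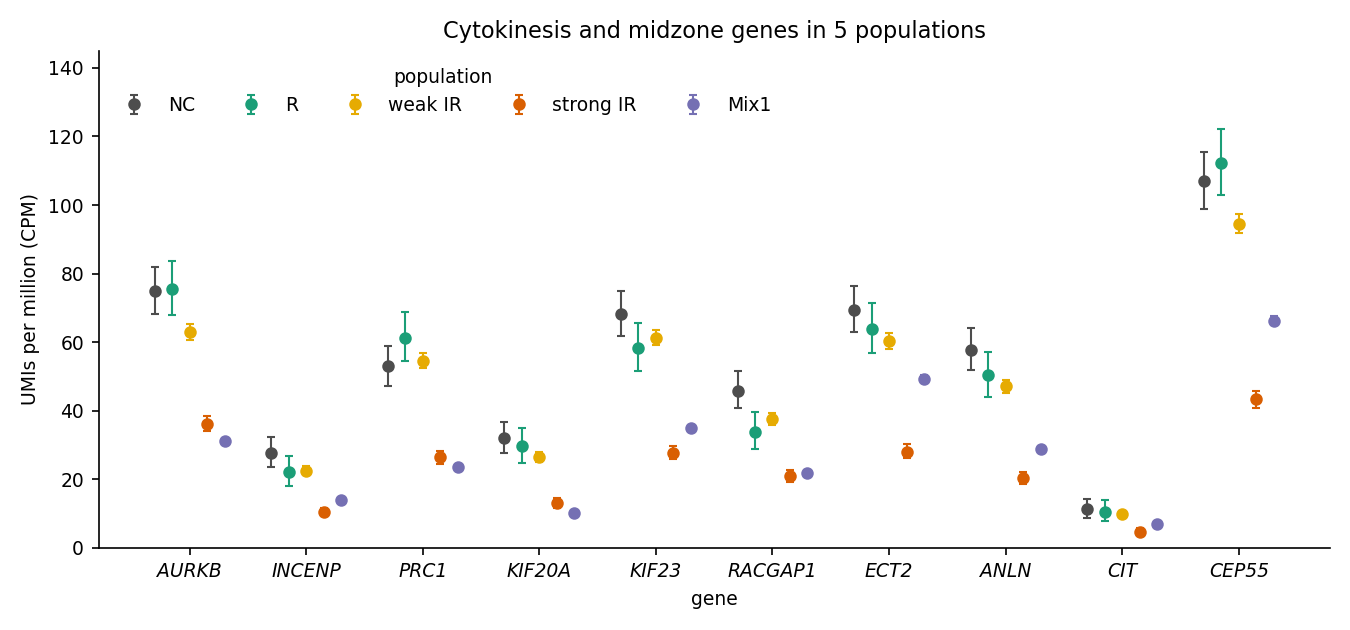
Level of each gene (x axis) in CPM (y axis) in the 5 populations. Points are CPM of summed UMIs and bars exact 95% Poisson intervals for counting error. Strong IR and Mix1 lie below NC, R and weak IR for every gene, and counts of 3′ ends should not be compared between genes.

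Both genes of the chromosomal passenger complex were lower in strong IR, by ratios whose intervals overlapped. AURKB (ENSG00000178999, GRCh38 chromosome 17, 8204733 to 8210600), the kinase that corrects attachments and later guards the midzone, stood at 74.9 CPM in NC, 75.4 in R, 63.0 in weak IR, 36.2 in strong IR and 31.2 in Mix1. The irradiated populations with strong tag or without tag were thus both far below NC, and R and NC overlapped. The ratio of strong IR to NC was 0.484 (0.433 to 0.542), among the smaller differences of the set. INCENP (ENSG00000149503, chromosome 11, 62123998 to 62153169), the scaffold that anchors and activates Aurora B, stood at 27.7 CPM in NC, 22.2 in R, 22.5 in weak IR, 10.4 in strong IR and 14.0 in Mix1. For INCENP the ratio of strong IR to NC was 0.374 (0.308 to 0.456). AURKB UMIs per INCENP UMI are given with the other partner ratios below.

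The midzone bundler and the kinesin that carries the passenger complex followed. PRC1 (ENSG00000198901, chromosome 15, 90966040 to 90995629) stood at 52.9 CPM in NC, 61.3 in R, 54.6 in weak IR, 26.4 in strong IR and 23.5 in Mix1. It was the gene of the set with the smallest difference between strong IR and NC, a ratio of 0.498 (0.436 to 0.570), and the only one whose weak IR level was above that of NC, by a ratio of 1.03 whose interval (0.919 to 1.16) spans 1. KIF20A (ENSG00000112984, chromosome 5, 138178719 to 138187723), also called MKLP2, stood at 31.9 CPM in NC, 29.6 in R, 26.5 in weak IR, 13.01 in strong IR and 10.0 in Mix1. Its ratio of strong IR to NC was 0.407 (0.341 to 0.488).

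Both subunits of centralspindlin were lower in strong IR, by ratios whose intervals overlapped. KIF23 (ENSG00000137807, chromosome 15, 69414246 to 69448427), its motor subunit, stood at 68.1 CPM in NC, 58.3 in R, 61.2 in weak IR, 27.7 in strong IR and 34.9 in Mix1, and its ratio of strong IR to NC was 0.407 (0.360 to 0.460). RACGAP1 (ENSG00000161800, chromosome 12, 49976923 to 50033136), the GTPase-activating subunit, stood at 45.9 CPM in NC, 33.8 in R, 37.7 in weak IR, 21.01 in strong IR and 21.9 in Mix1. Its ratio of strong IR to NC was 0.458 (0.396 to 0.530). RACGAP1 was also the gene with the widest gap between R and NC, a ratio of 0.737 (0.603 to 0.898). ECT2 (ENSG00000114346, chromosome 3, 172750682 to 172821474), the exchange factor that centralspindlin recruits, stood at 69.5 CPM in NC, 63.8 in R, 60.3 in weak IR, 28.1 in strong IR and 49.4 in Mix1. Strong IR was at 0.404 (0.359 to 0.456) of NC, whereas Mix1 was at 0.711 (0.644 to 0.786) and so inside the 1.5-fold limit.

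The genes of the ring and the bridge were lower too. ANLN (ENSG00000011426, chromosome 7, 36389821 to 36453791), which links actin, myosin, septins and RhoA, stood at 57.7 CPM in NC, 50.3 in R, 47.1 in weak IR, 20.2 in strong IR and 28.9 in Mix1. No other gene of the set had a lower ratio of strong IR to NC than ANLN, at 0.351 (0.306 to 0.402). CIT (ENSG00000122966, chromosome 12, 119685791 to 119877320) had the fewest UMIs, 69 in NC and 129 in strong IR, and stood at 11.3 CPM in NC, 10.6 in R, 9.83 in weak IR, 4.76 in strong IR and 7.04 in Mix1. Counts of 3′ ends do not separate citron kinase from the shorter citron-N form of the same gene. The ratio of strong IR to NC for CIT, 0.421, has a wide interval (0.312 to 0.572). CEP55 (ENSG00000138180, chromosome 10, 93496612 to 93529092), the recruiter of ESCRT to the bridge, had the most UMIs of the set in every population and stood at 107 CPM in NC, 112 in R, 94.5 in weak IR, 43.3 in strong IR and 66.3 in Mix1. The ratio of strong IR to NC for CEP55 was 0.405 (0.367 to 0.446).

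**Figure D2:**
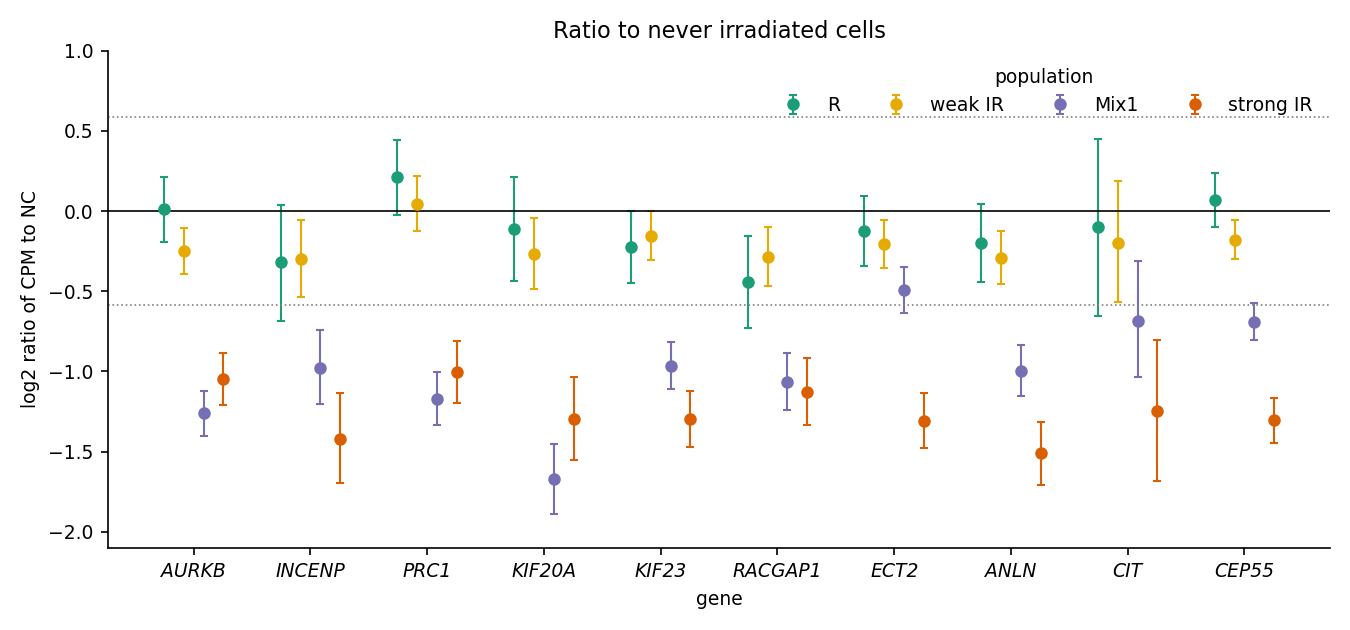
Log2 ratio of CPM to NC (y axis) for each gene (x axis) in R, weak IR, Mix1 and strong IR, with exact 95% intervals for counting error and dotted lines at 1.5-fold. All 10 strong IR points lie below the lower dotted line, 9 of 10 Mix1 points do (all but ECT2), and no R or weak IR point does; the 4 ratios share the NC cells.

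Genes that work beside the set were read from lists. The midzone and ring partners were picked as genes that peak in mitosis, and the contractile ring, septin and abscission genes were not. The lists therefore cannot locate a step of the process at which the difference ended. Of the 11 mitotic midzone and ring partners all 11 were called lower in strong IR than in NC, beside 15.4% of all genes. Their ratios were 0.318 to 0.478. The motor KIF20B stood at 27.3 against 85.8 CPM (0.318), the spindle pole gene ASPM at 26.5 against 80.6 (0.328), the RhoA regulator ARHGAP11A at 20.2 against 56.8 (0.355) and the chromokinesin KIF4A at 19.6 against 54.1 (0.363). KIF14, which binds PRC1 and citron kinase, was at a ratio of 0.374, the formin DIAPH3 at 0.397, the centralspindlin partner SHCBP1 at 0.401 and the kinase PLK1, which licenses ECT2 binding, at 0.410. The other subunits of the passenger complex, BIRC5 (survivin) at 0.423 and CDCA8 (borealin) at 0.434, lay between INCENP and AURKB, and CKAP2 was highest at 0.478.

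The machinery of the final cut was not lower as a group. Of 15 measured genes of abscission, among them the ESCRT components that CEP55 recruits, none was called lower or higher (15.4% and 9.92% of all genes were), and their summed level was 1021 CPM in strong IR against 999.6 in NC, a ratio of 1.02 (0.993 to 1.05). CHMP2B (0.788) and VPS4A (0.791) had the lowest ratios and CHMP1B (1.37) and CHMP3 (1.37) the highest. Of 20 measured genes of the actomyosin ring and septins 6 were called lower and 1 higher, beside the same 15.4% and 9.92% of all genes, with a median log2 ratio of -0.24 beside -0.11 over all genes. Of the actins, ACTB (866 against 1380 CPM, 0.627) was among the 6 and ACTG1 (1480 against 2103 CPM, 0.703) was not. The septin SEPT10 stood at 34.0 against 64.1 CPM (0.530) and the formin DIAPH1 at 63.4 against 104 CPM (0.612), whereas the septin SEPT9 stood at 79.4 against 46.4 CPM (1.71) and the myosin light chain MYL9 at 117 against 87.5 CPM (1.34). RHOA was at 0.751 of NC, inside the limit.

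Of 9 measured regulators of late cell cycle genes 6 were called lower, beside 15.4% of all genes. These were the repressor E2F8 (7.30 against 21.1 CPM, 0.345), the pocket protein RBL1 (0.468), FOXM1, an activator of late cell cycle genes (19.5 against 40.1 CPM, 0.485), E2F1 (0.592), MYBL2, which binds TTTGAA promoters with the MuvB complex (40.8 against 66.3 CPM, 0.616), and E2F7 (0.618). E2F4, of the repressive DREAM complex, was at 0.711, its partner TFDP1 at 0.769 and RB1 at 0.844. The members stood no lower than the general G2 and M programme: 28 anchor genes of G2 and M that include none of the 10 had a summed ratio of 0.421 (0.415 to 0.427), and 23 S phase genes one of 0.491 (0.482 to 0.500).

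**Figure D3:**
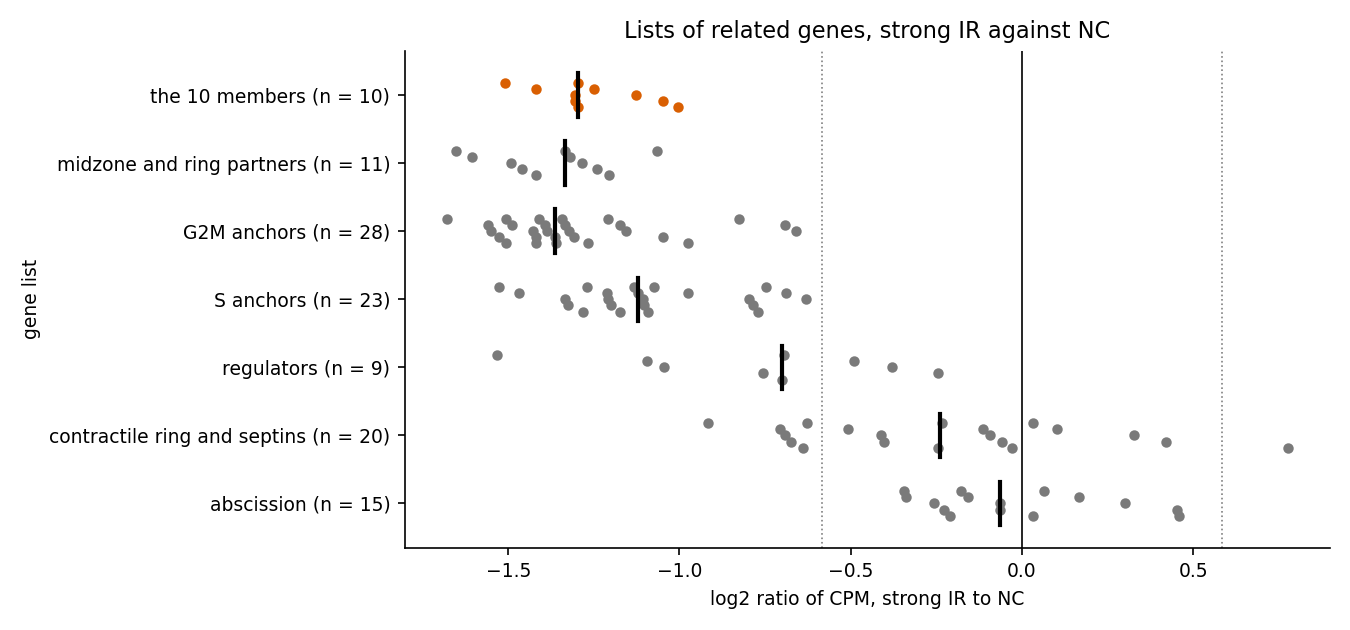
Log2 ratio of CPM of strong IR to NC (x axis) for each measured gene (point) of 7 gene lists (y axis), with black bars at the list medians and dotted lines at 1.5-fold. The 10 members and the 11 partners lie wholly below the lower limit, with medians of -1.30 and -1.33, while the abscission genes lie within both limits with a median of -0.07.

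The other populations of Mix2 were close to one another. In weak IR the summed level was 477 CPM, 0.873 (0.841 to 0.905) of NC. None of the 10 was called lower, where 0.481% of all genes were, although for 8 of the 10 the interval lay below 1. INCENP (0.813) and ANLN (0.816) had the lowest ratios. In R, the cells that had regrown, the summed level was 518 CPM, 0.947 (0.898 to 0.997) of NC. No member was called lower in R either, against 1.83% of all genes (3 were with the stricter cell filter, which left 29 R cells), and the interval lay below 1 for RACGAP1 and KIF23 only (0.856, 0.732 to 0.999). Among thinned cells with 11 or more UMIs of the G2 and M anchor genes described below, RACGAP1 in R was at 0.719 (0.541 to 0.950) of NC with cells thinned to 5000 UMIs and at 0.946 (0.650 to 1.37) at 3000. The direction of RACGAP1 in R depended on the cells kept, since with the stricter cell filter the log2 ratio of R to NC was 0.32. Weak IR and R differed by a ratio of 0.922 (0.884 to 0.962) in the sum, with no member called and 0.482% of genes called lower. AURKB (0.835, 0.748 to 0.934) and CEP55 (0.842, 0.770 to 0.923) were the members whose intervals lay below 1 there.

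Set against the cells that regrew and against the weakly tagged cells, strong IR gave nearly the same picture as against NC. The summed ratio to R was 0.446 (0.426 to 0.468), and 10 of 10 members were called lower, with 11.4% of all genes. RACGAP1 was nearest to R, at 0.621 (0.521 to 0.745), and CEP55 furthest below it, at 0.386 (0.348 to 0.428). This order did not hold with the stricter cell filter, where the log2 ratio to R was -1.88 for RACGAP1 and -1.68 for CEP55. The summed ratio to weak IR was 0.484 (0.471 to 0.498). Here 9 of the 9 members with at least 10 CPM were called lower, with 10.6% of all genes, and CIT, below that limit in both populations, was at 0.484 (0.395 to 0.589). These comparisons share the strong IR cells.

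Across the irradiated cells of Mix2 the level of the set changed with the count of tag8. It was 450 CPM at 500 to 999 counts, 489 (481 to 498) at 1000 to 1999 and 475 (463 to 487) at 2000 to 3159. Just above the limit of strong IR, at 3160 to 4999 counts, it was 351 (338 to 364), then 224 at 5000 to 9999 and 142 (134 to 149) at 10000 and more. The cells just inside and just outside the strong IR limit were therefore at 351 and 475 CPM. Sums over bins cannot tell a graded change in every cell from a changing mix of groups, and this was not tested. CDKN1A, which p53 induces and whose product p21 holds cells before division, moved the other way, from 232 CPM at 1000 to 1999 counts to 651 just above the limit and 1085 in the highest bin. The median of gene UMIs per cell rose from 7458.5 at 1000 to 1999 counts to 13146 at 5000 to 9999 and was 11080.5 in the highest bin. What links tag8, cell content and these genes was not tested.

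The members did not share 1 slope along tag8. Between 1000 to 1999 counts and the highest bin ANLN went from 50.4 to 9.25 CPM, a ratio of 0.184 (0.147 to 0.228). INCENP was at 0.219 (0.160 to 0.294) and KIF23 at 0.223 (0.186 to 0.267). AURKB, at the other end, went from 65.2 to 25.7 CPM, a ratio of 0.394 (0.344 to 0.451), and its interval does not meet that of ANLN. RACGAP1 (0.382, 0.319 to 0.455) and KIF20A (0.368, 0.293 to 0.458) lay beside AURKB.

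**Figure D4:**
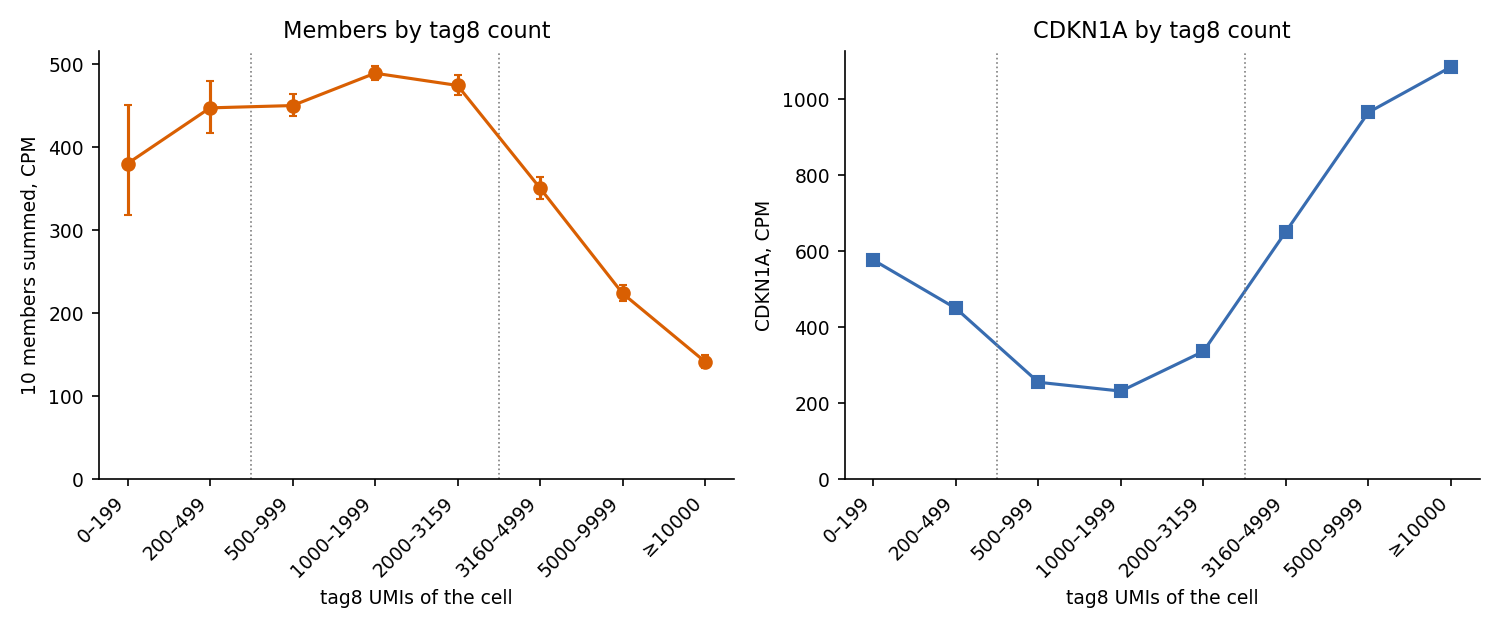
Summed CPM of the 10 genes (left, y axis, with exact 95% Poisson intervals) and CPM of CDKN1A (right, y axis) in Mix2 cells binned by tag8 UMIs (x axis); all bins hold cells with at least 80% tag8, and dotted lines mark the limits of weak and strong IR. The members peak at 489 CPM and end at 142 CPM in the highest bin, where CDKN1A reaches 1085 CPM.

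Strong IR cells had more UMIs in all, so the difference per cell was smaller than the difference per UMI. Mean UMIs per cell were 12242 in strong IR and 7536 in NC. A strong IR cell held 2.83 (2.76 to 2.90) UMIs of the 10 genes and an NC cell 4.12 (3.98 to 4.26), a ratio of 0.686 (0.658 to 0.716). In Mix1 it was 2.77, in weak IR 3.55 and in R 3.87. At equal depth the gap opened again: among cells thinned to 5000 UMIs the mean was 1.14 in strong IR (2066 cells) and 2.65 in NC (699 cells), beside 2.41 in R (537 cells), 2.34 in weak IR (5223 cells) and 1.55 in Mix1 (10667 cells). Thinning left out 13.7% of NC, 15.2% of R, 17.4% of weak IR, 6.77% of strong IR and 31.8% of Mix1 cells as too shallow.

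The lower level went with more cells in which none of the genes was seen. No member was detected in 46.9% (44.7 to 49.0) of thinned strong IR cells, in 38.9% (38.0 to 39.8) of Mix1, 18.3% (17.3 to 19.4) of weak IR, 16.4% of R and 13.4% (11.01 to 16.2) of NC. Without thinning, at least 1 member was detected in 67.6% of strong IR and 90.6% of NC cells. Cells with 3 or more of the 10 made up 12.7% (11.3 to 14.2) of thinned strong IR and 39.8% (36.1 to 43.5) of NC. Single genes showed the same shift: CEP55 was seen in 40.1% (36.4 to 43.8) of thinned NC and 17.5% (15.9 to 19.2) of thinned strong IR cells, ANLN in 25.2% (22.0 to 28.6) and 8.66% (7.49 to 9.96), and AURKB in 28.6% (25.3 to 32.1) and 15.2% (13.7 to 16.8). As deposited, CEP55 was seen in 50.6% of NC and 31.2% of strong IR cells, ANLN in 32.8% and 18.1%, and AURKB in 38.5% and 28.2%.

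No cell type that should lack these genes was in the libraries, so the background of free RNA was read from droplets without cells. In 44723 such droplets of Mix2, with a median of 399 UMIs, the 10 genes had 164 (158 to 170) CPM, or 0.0656 UMIs per droplet. Scaled by cell number this equals 1.59% of the members' UMIs in NC and 2.32% in strong IR, and 0.735% to 2.96% for single genes over the 4 populations of Mix2. It is small beside the differences above.

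Cells were next matched on how much of the G2 and M programme they expressed, by the summed UMIs of the 28 anchor genes in cells thinned to 5000 UMIs. Of NC cells 59.4% (55.6 to 63.0) had over 20 anchor UMIs, against 58.3% of R, 48.3% of weak IR, 27.9% of Mix1 and 16.8% (15.2 to 18.5) of strong IR. At the other end 20.1% of strong IR but 0.858% of NC cells had only 1 or 2. Within the bins of 11 to 20 and over 20 strong IR was nearer to NC than over all thinned cells. Both ratios were below 1, but the interval of the upper bin spanned 1. Cells inside a bin were matched only roughly. Mean anchor UMIs were 30.6 in strong IR and 32.9 in NC in the bin over 20, and 15.1 and 15.6 at 11 to 20. Mean UMIs of the S phase genes at 11 to 20 were 9.49 in strong IR and 14.2 in NC. Whether a difference would remain at equal levels was not tested. Cells with over 20 anchor UMIs held 3.11 (2.93 to 3.30) member UMIs in strong IR and 3.32 (3.15 to 3.50) in NC, a ratio of 0.936 (0.864 to 1.01), and cells with 11 to 20 held 1.61 and 1.94, a ratio of 0.827 (0.732 to 0.936). When NC levels per bin were weighted by the bin shares of strong IR, they came to 1.34 member UMIs per cell. The 1.14 seen was 0.851 of that (0.817 to 0.886, from the counts of strong IR alone). The plain ratio of thinned cells was 0.429. In Mix1 the matched ratio was 0.888 against a plain ratio of 0.583, in weak IR 0.971 against 0.882 and in R 0.938 against 0.909.

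The low bins of NC held few cells, 1, 6 and 18. With the 3 bins that held more than 20 cells the matched ratio of strong IR to NC was 0.894 (1116 strong IR cells, 54.0%), and with weak IR in place of NC as the reference, where all bins were filled, it was 0.914. Bin by bin, strong IR held 1.04, 1.10 and 1.03 of the member UMIs per cell of weak IR at 0, 1 to 2 and 3 to 5 anchor UMIs, with intervals that span 1. At 6 to 10 the ratio was 0.777 (0.672 to 0.897), at 11 to 20 it was 0.863 (0.793 to 0.939) and over 20 it was 0.961 (0.901 to 1.02). The anchors and the members are both late cell cycle genes, so matching on one takes up much of the other by construction.

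**Figure D5:**
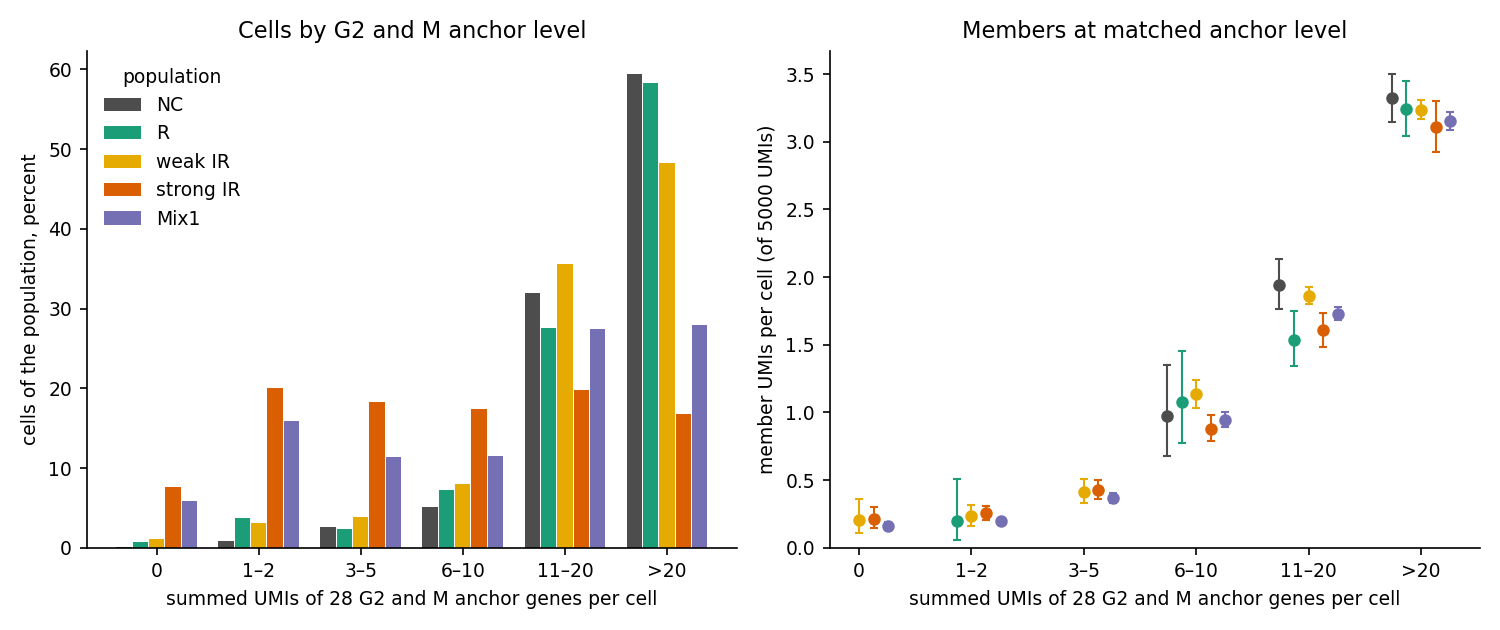
Share of thinned cells of each population (left, y axis, percent) and member UMIs per cell with exact 95% Poisson intervals (right, y axis; bins of at least 20 cells) by the summed UMIs of 28 G2 and M anchor genes (x axis). Strong IR cells spread over the low bins, 16.8% of them above 20 anchor UMIs against 59.4% of NC. Within the bins of 11 to 20 and over 20 anchor UMIs the strong IR level was 0.827 and 0.936 of NC.

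Inside the cells with 11 or more anchor UMIs, 756 in strong IR (36.6%) and 638 in NC (91.3%), single genes were compared, with few UMIs behind each value. INCENP was at 0.557 (0.402 to 0.768), ANLN at 0.640 (0.517 to 0.791), RACGAP1 at 0.694 (0.543 to 0.885) and ECT2 at 0.711 (0.583 to 0.868) of NC per thinned cell. CEP55 was at 0.785 (0.676 to 0.911). For PRC1 (1.07, 0.869 to 1.31), KIF23 (0.939), KIF20A (0.922), AURKB (0.911) and CIT (0.844) the interval spanned 1. The bin over 20 held 347 of these strong IR cells and 415 of these NC cells, so the shares of the bins differed. Weighting the pair of bins alike gave 0.892 for the summed members. It gave 0.663 for INCENP, 0.734 for ANLN, 0.744 for RACGAP1, 0.751 for ECT2, 0.806 for CIT and 0.828 for CEP55. For AURKB it gave 1.01, for KIF23 1.08, for KIF20A 1.09 and for PRC1 1.21. Several of these values rested on the depth to which cells were thinned. At 3000 UMIs, with 453 strong IR and 544 NC cells at 11 or more anchor UMIs, ANLN (0.691, 0.514 to 0.924) and ECT2 (0.688, 0.506 to 0.928) stayed below NC. INCENP was then at 1.04 (0.687 to 1.58), RACGAP1 at 0.897 (0.623 to 1.28) and CEP55 at 0.857 (0.694 to 1.06), with intervals that span 1, and KIF23 at 0.728 (0.541 to 0.974).

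In thinned cells of strong IR, weak IR and Mix1 the level of the set fell from class to class of CDKN1A UMIs. It did not fall at each step in R, with 2.44 member UMIs per cell at 0 CDKN1A UMIs and 2.59 at 1 or 2. In NC thinned to 3000 UMIs it was 1.62 and 1.63 in these classes. In strong IR it was 2.38 (2.19 to 2.59) member UMIs per cell at 0 CDKN1A UMIs, 1.70 at 1 or 2, 0.887 at 3 to 5 and 0.517 (0.465 to 0.574) at 6 or more. NC cells without a CDKN1A UMI held 2.74 (2.57 to 2.93). With cells thinned to 3000 UMIs the values without a CDKN1A UMI were 1.23 (1.13 to 1.34) in strong IR and 1.62 (1.51 to 1.73) in NC, and the intervals do not meet. These classes held unequal shares: 33.6% of strong IR, 16.9% of Mix1, 3.29% of weak IR and 0.715% of NC cells had 6 or more CDKN1A UMIs. Of the 694 strong IR cells with 6 or more, 18 held 3 or more members, and of the 1801 in Mix1, 26 did.

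Depth per cell moved with the level too. NC cells with 10000 to 20000 UMIs stood at 685 (642 to 729) CPM of the set and those with 5000 to 10000 at 510. Strong IR cells were at 239 (232 to 246) and 180 in the same ranges, so they lay below NC at matched depth. In Mix1 the level was highest at 10000 to 20000 UMIs, 322 CPM, and lower at 20000 to 40000, 231 CPM in 1283 cells, where CDKN1A stood at 862 CPM. The 12 Mix1 cells with over 40000 UMIs, the highest counts, were at 162 (129 to 200) CPM, and doublets were not removed.

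The irradiated cells of Mix1 also stood below NC, but with other proportions among the genes. The summed level was 287 CPM, 0.525 (0.507 to 0.544) of NC, and 9 of 10 members were called lower, where 10.0% of all genes were. Library and preparation cannot be told apart in this comparison. KIF20A had the lowest ratio of Mix1 to NC, 0.314 (0.270 to 0.366), followed by AURKB at 0.417 (0.379 to 0.460) and PRC1 at 0.444 (0.396 to 0.499). ECT2 (0.711), CIT (0.623, 0.488 to 0.807) and CEP55 (0.620, 0.572 to 0.672) had the highest. For these genes the values of strong IR against the same NC cells were 0.407 for KIF20A, 0.484 for AURKB, 0.498 for PRC1, 0.404 for ECT2, 0.421 for CIT and 0.405 for CEP55.

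The proportions within the set show this without reference to other genes. ECT2 took 17.2% (16.8 to 17.6) of the members' UMIs in Mix1 and 12.2% to 12.7% in the 4 populations of Mix2. CEP55 took 23.1% in Mix1 and 18.7% to 21.7% in Mix2. KIF20A took 3.49% (3.32 to 3.67) in Mix1 and 5.55% to 5.84% in Mix2, and AURKB 10.9% (10.6 to 11.2) in Mix1 and 13.2% to 15.7% in Mix2. At 11 or more anchor UMIs, where Mix1 held 5909 cells, KIF20A was at 0.563 (0.452 to 0.707) of NC, AURKB at 0.686 (0.598 to 0.789) and PRC1 at 0.755 (0.643 to 0.892), whereas ECT2 was at 1.16 (1.01 to 1.33) and CEP55 at 0.990 (0.889 to 1.11). At 3000 UMIs these were 0.651 (0.487 to 0.881) for KIF20A, 0.708 (0.591 to 0.853) for AURKB, 0.854 (0.683 to 1.08) for PRC1, 1.23 (1.02 to 1.497) for ECT2 and 0.974 for CEP55, so the interval of PRC1 then spanned 1. Weighting the pair of bins alike at 5000 UMIs gave 0.639 for KIF20A, 0.741 for AURKB, 0.829 for PRC1, 1.20 for ECT2 and 1.03 for CEP55.

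Partners were also compared as UMIs of one per UMI of the other, which needs no scaling between populations. For the subunits of centralspindlin the ratio of KIF23 to RACGAP1 was 1.49 (1.27 to 1.74) in NC, 1.73 in R, 1.63 in weak IR, 1.32 (1.18 to 1.47) in strong IR and 1.59 in Mix1. The intervals of NC and strong IR overlapped, and those of weak IR (1.53 to 1.73) and strong IR did not. For the passenger complex the ratio of AURKB to INCENP was 2.70 (2.26 to 3.25) in NC, 3.40 in R, 2.80 in weak IR, 3.50 (3.06 to 4.01) in strong IR and 2.22 (2.11 to 2.34) in Mix1, and the intervals of strong IR and Mix1 did not meet, although that of NC overlapped both. ECT2 UMIs per RACGAP1 UMI were 1.51 (1.30 to 1.77) in NC, 1.89 in R, 1.60 in weak IR, 1.34 (1.20 to 1.49) in strong IR and 2.25 (2.16 to 2.35) in Mix1.

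At the bridge, PRC1 UMIs per CEP55 UMI were 0.495 (0.432 to 0.566) in NC, 0.546 in R, 0.577 in weak IR, 0.609 (0.554 to 0.669) in strong IR and 0.355 (0.341 to 0.369) in Mix1. Mix1 lay below the other 4 populations, whose intervals overlapped in part. ANLN UMIs per ECT2 UMI were 0.830 (0.719 to 0.958) in NC, 0.788 in R, 0.781 in weak IR, 0.720 (0.644 to 0.805) in strong IR and 0.586 (0.564 to 0.608) in Mix1.

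Detection of the genes in the same cell was counted for 6 pairs. In strong IR cells thinned to 5000 UMIs the share with both genes of a pair was 1.47 to 1.95 times the product of the single shares. In Mix1 it was 1.42 to 1.83 times and in NC 1.01 to 1.34 times. Few cells held both genes, down to 22 strong IR cells for AURKB and INCENP. At 3000 UMIs the order of strong IR and NC was not the same for every pair. AURKB and INCENP were then at 1.38 in strong IR (10 cells) and 1.67 in NC (17 cells), and ECT2 and RACGAP1 at 1.27 and 1.38. For the other pairs strong IR stayed above NC. The genes of a pair share the library and the depth of the cell, and these counts are a description.

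Among 7936 genes with at least 10 CPM in 1 or more of the 5 populations, those whose log2 profile over the populations lay nearest to the median profile of the set were sought. CCNA2, which encodes cyclin A and is also one of the anchor genes, was nearest (distance 0.0420 on the log2 scale), with 75.0 CPM in NC, 67.8 in R, 62.4 in weak IR, 29.8 in strong IR and 38.3 in Mix1. RFC5, of the clamp loader of DNA replication, followed at a distance of 0.101, then KIF14 (0.114), the centriole gene CEP152 (0.123) and GTSE1 (0.127). Of the members, KIF23 ranked 3 among the 7936 genes, INCENP 7 and ANLN 15. KIF20A ranked 922, the member least like the median of the set. The profile rests on 5 values a gene and is a description.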

How the data were processed

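The data are gene counts of single cells from 2 libraries made with a droplet 3′ kit. The deposited matrices hold UMI counts made by the authors with Cell Ranger (per the file headers, Mix2 with version 3.0.1 and Mix1 with 3.1.0), as raw counts of 33538 genes, with the 3 hashtags as the last features of Mix2. Seurat 2.3 is named in the submitters' processing notes. The unfiltered matrix of Mix2 served only to measure droplets without cells (300 to 499 UMIs).

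From 17019 (Mix1) and 13888 (Mix2) barcodes, 15630 and 11652 passed the limits of 200 genes and 10% mitochondrial UMIs. Hashtag limits were those given in the report, which left 1671 cells of Mix2 in no population. No doublet caller was run, and leaving out the 5% of cells with the most UMIs was an alternative. The UMIs of all cells of a population were added up and expressed as CPM. Ratios carry exact conditional binomial intervals, shares Clopper-Pearson intervals and levels exact Poisson intervals, all of 95%. UMI counts limit the precision, and the intervals leave out differences between cultures, sorts and libraries.

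Genes with 10 CPM in either population were measured and called past 1.5-fold. The genes named are the 10, all measured genes of a list with under 13, otherwise the 2 lowest and 2 highest ratios of strong IR to NC of a list, and the 5 nearest profiles. ACTB, ACTG1 and RHOA are named beside these. The 10 genes, the lists and the limits were chosen with earlier results of these data known. Comparisons of sums and intervals were tested on simulated data. Python 3.11.15, numpy 2.4.6, scipy 1.17.1, pandas 2.3.3 and matplotlib 3.10.9 were used, with edgeR 4.0.16 in R 4.3.3 for TMM factors only. Gene positions came from GENCODE 44 and promoters from RefSeq.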

Additional observations from a re-analysis of the deposited data

Results flagged for a closer look

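UMIs of the 10 genes were also present in barcodes that no comparison used, above the limit that a count of 0 allows. In 44723 droplets of Mix2 without cells the summed level was 164 CPM (158 to 170), from 39.2 CPM for CEP55 down to 1.57 CPM for CIT, where 3 counts would be 0.168 CPM. Among the 1389 Mix1 barcodes removed by the limits on genes and mitochondrial UMIs it was 139 CPM (131 to 147). The 2236 Mix2 barcodes removed in the same way stood at 217 CPM (209 to 225). The 1671 cells of Mix2 whose hashtags placed them in no population stood at 444 CPM (431 to 458), with a median of 2640 UMIs per cell.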

How the results depend on the processing

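Of 190 values of the main results under alternative settings, 152 stayed within the tolerance set for them (the counting interval of the main value for a ratio, 1.5 times for a count of members), 38 did not, and no summed log2 ratio changed sign. All 110 alternative values of single genes in strong IR against NC were below 0 on the log2 scale, from -2.71 to -0.92. The summed log2 ratio of strong IR to NC, -1.24, became -1.16 with TMM factors, -1.18 without mitochondrially encoded and ribosomal protein genes, -1.33 with an own-tag share of 90%, -1.71 with the tag limits doubled and -1.92 with at least 1000 genes and under 5% mitochondrial UMIs. That strict cell filter left 172 NC, 29 R, 788 weak IR, 897 strong IR and 10806 Mix1 cells. Under it the log2 ratio was -1.57 for strong IR to R, -1.53 for strong IR to weak IR, -0.35 for R to NC, -0.39 for weak IR to NC, -0.037 for weak IR to R and -1.02 for Mix1 to NC. The count of members past 1.5-fold then became 3 for R against NC, 1 for weak IR against NC and 1 for weak IR against R, and CIT had no UMI in R, so its 3 ratios with R could not be given. With the tag limits doubled strong IR to R became -1.63 and to weak IR -1.51. Thinning gave -1.08 for strong IR to R, -0.044 for weak IR to R and -0.78 for Mix1 to NC. Without a mitochondrial limit strong IR to weak IR was -0.99 and weak IR to NC -0.26. Without mitochondrially encoded and ribosomal protein genes strong IR to weak IR was -0.997 and Mix1 to NC -0.86. Weak IR to NC was -0.13 with TMM factors and -0.26 with an own-tag share of 90%. Mix1 to NC, -0.93, was -0.87 with TMM factors, -0.98 with equal weight per cell, -0.996 with an own-tag share of 90% and -0.81 without the 5% of cells with the most UMIs, and 4 members were past a 2-fold limit. Members per cell relative to NC were 0.686 (strong IR) and 0.672 (Mix1) without thinning, and 0.553 (Mix1) at 3000 UMIs. The matched ratio was 0.811 (strong IR) and 0.867 (Mix1) at 3000 UMIs, 0.894 and 0.931 in bins of 20 or more cells, and 0.914 for strong IR with weak IR as the reference; the bins of 20 cells and the weak IR reference were chosen after seeing the data. The cause of these shifts was not tested. No paired analysis was possible because each population is 1 sample and no result comes from a test. Depth limits CIT most, with 50 UMIs in R and 69 in NC.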
